A study of Drosophila melanogaster with 2 samples.

Results

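RNASEK, Haspin, CG14464 and d4 are 4 of the 13968 protein-coding genes annotated on the 7 main chromosomes of Drosophila melanogaster. They were chosen by a measured value, namely a very high signal of a promoter or nearby peak in the pooled peak list of a ChIP-seq study. Chromatin immunoprecipitation with sequencing (ChIP-seq) maps where a protein sits on the genome. Here the protein was CG1024-eGFP, which joins the CG1024 protein to a green fluorescent tag (GFP). Whole embryos of the transgenic strain CG1024-GFP, 0 to 24 hours old, were used for 2 biological replicates, and the antibody is described as anti-GFP, although the labels' antibody field names CG1024. There was no other genotype, treatment or age, and whole embryos mix all cell types of that day of development. The replicates are separate biological samples by their labels, and no test was made between them.

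The values are peak signals, the authors' own number for each peak, with no stated scale. They are therefore compared mainly within a list, or printed side by side for the 2 replicates. Ratios between the replicates, or of the pooled list to the replicates, are descriptions only, since a shared scale is not stated. The conservative list pools both replicates and keeps peaks that rank alike in them by the irreproducible discovery rate (IDR), a measure of how far the ranks of repeat peak lists disagree. It holds 3401 peaks, 3397 of them on the 7 chromosomes. The read depth behind the peaks is unknown, because no list holds read counts.

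The 4 genes have different roles. RNASEK encodes ribonuclease kappa, a small membrane protein that associates in human cells with the proton pump of endosomes and lysosomes, the V-ATPase, and that flies and human cells need for the entry of many viruses. Haspin encodes the kinase that phosphorylates a threonine in the tail of histone H3 during mitosis, which helps bring the chromosomal passenger complex with Aurora B to centromeres. The d4 gene encodes a protein with a double PHD finger, a domain that reads histone tails, and its mammalian relatives belong to the BAF chromatin remodelling complex. No role is given here for CG14464.

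All 4 genes lie on chromosome arm 2R (genome build dm6, 1-based positions). RNASEK (FBgn0262116) spans 4186835 to 4188127 on the minus strand. Haspin (FBgn0046706) spans 4014111 to 4049342, CG14464 (FBgn0033000) spans 4829246 to 4830587, and d4 (FBgn0033015) spans 5259004 to 5295965, each on the plus strand. RNASEK and CG14464 are short genes of 1293 and 1342 bp, while Haspin and d4 are 35232 and 36962 bp long. RNASEK, Haspin and CG14464 each have 1 annotated transcription start site (TSS), and d4 has 2, which lie 35059 bp apart.

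In the stretch from 5 kb upstream to the gene end, the conservative list placed 9 peaks, namely 1 at RNASEK, 2 at Haspin, 3 at CG14464 and 3 at d4. The strongest of a gene is called its leading peak, the next ones its peak 2 and peak 3, and the position of highest signal in a peak is its summit. All 4 genes had at least 1, and over all protein-coding genes 29.2% did. CG14464 and d4 had 3, and 2.63% of all genes had 3 or more, although the windows differ in length, from 6293 bp for RNASEK to 41962 bp for d4. The other pooled list held the same 9 peaks with the same bounds. Each replicate's own thresholded list also had 1, 2, 3 and 3 peaks at RNASEK, Haspin, CG14464 and d4.

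**Figure D1:**
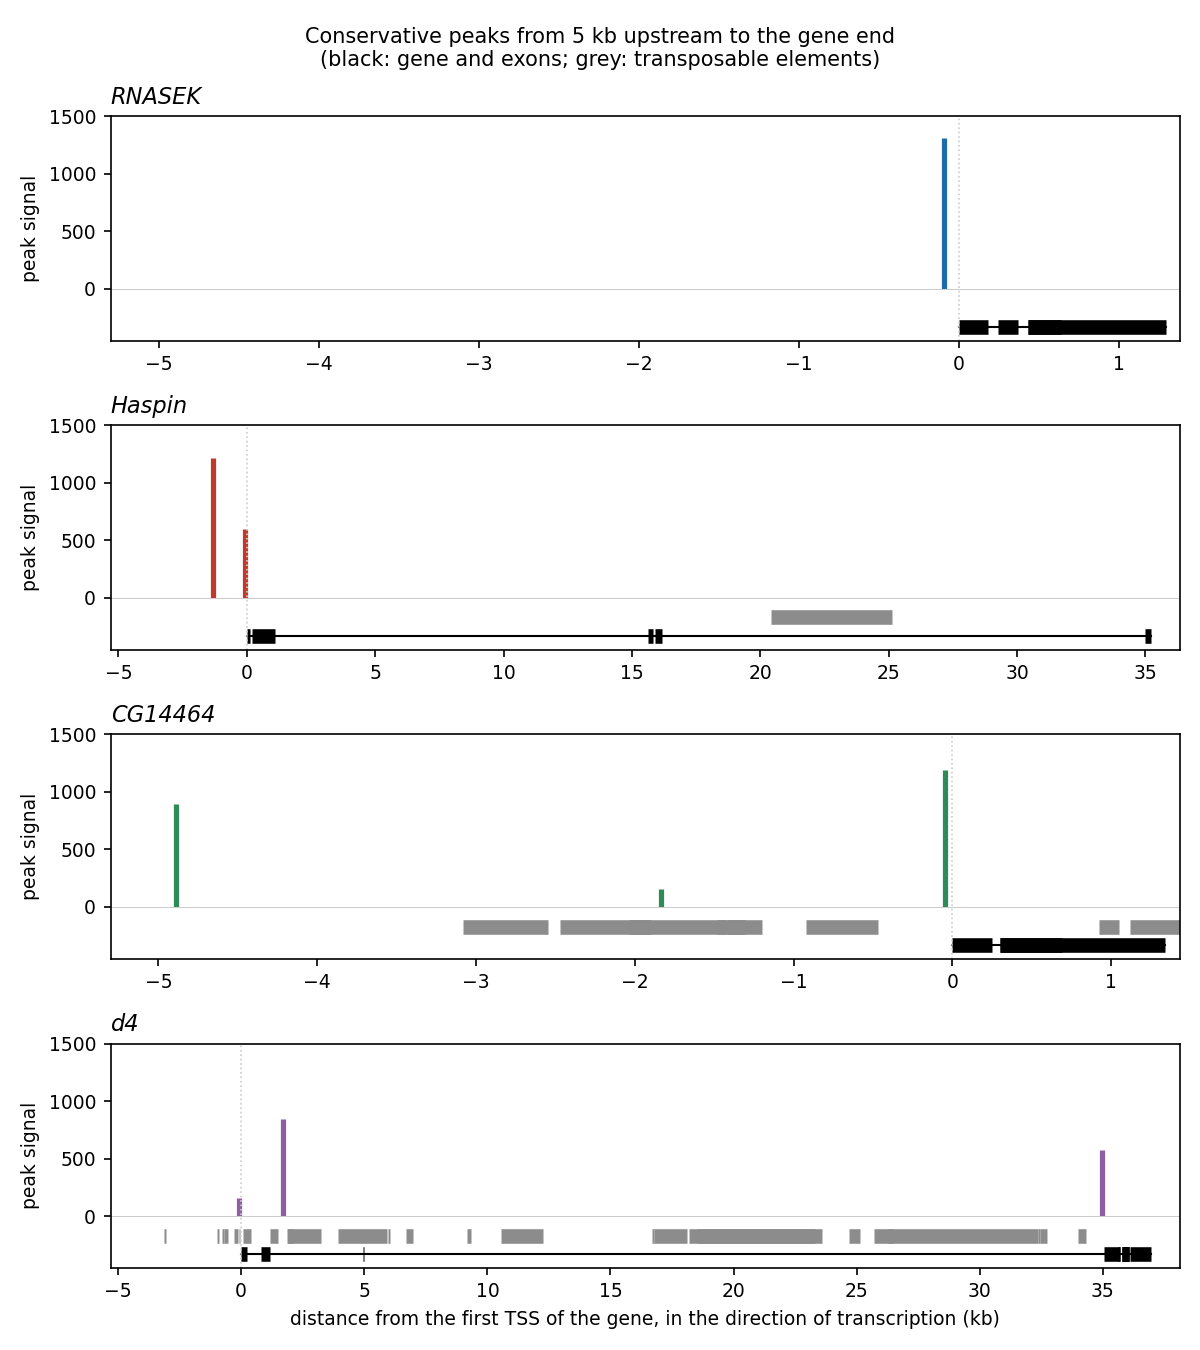
Conservative peaks of the 4 genes, with peak signal on the vertical axis and distance from the first TSS in kb on the horizontal axis, in the direction of transcription. Coloured bars are peak summits, black marks the gene and its exons, and grey marks annotated transposable elements; RNASEK has a single bar, of 1315.1, just before its TSS, while the tallest bars of Haspin and d4 stand 1322 bp before and 1680 bp after theirs.

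RNASEK had a single, promoter-bound peak. It runs from 4188080 to 4188403, and its summit, 4188220, stands 93 bp before the TSS. The signal was 553.0 in replicate 1 and 765.3 in replicate 2, and 1315.1 in the pooled list. This is the 6th strongest of the 3397 conservative peaks, the 11th of replicate 1 and the 4th of replicate 2. Replicate 2 was 1.38 times replicate 1, the widest gap among the 9 peaks. The nearest TSS of another gene, IntS3, is 54714 bp from this summit. The next conservative summits beyond the window lay 13743 bp from it on one side (signal 176.2) and 31992 bp on the other (signal 129.4).

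Haspin had a pair of peaks upstream of its TSS, and the one farther from the gene was the stronger. That peak runs from 4012656 to 4012929 in intergenic sequence. Its summit, 4012789, is 1322 bp before the TSS. Its signal was 577.4 in replicate 1 and 641.6 in replicate 2, and 1218.9 pooled, the 12th strongest. The promoter peak, from 4013926 to 4014159, peaked at 4014051, 60 bp before the TSS. There the signal was 256.3 in replicate 1, 341.2 in replicate 2 and 602.5 pooled, the 100th strongest. The upstream peak was the higher of the pair in each replicate. The summits stand 1262 bp apart, and the nearest other gene with a TSS, uex, starts 63364 bp from the upstream one.

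CG14464 had its strongest peak at its own promoter. The peak runs from 4829051 to 4829343, and its summit, 4829199, is 47 bp before the TSS. The signal was 542.0 in replicate 1, 663.1 in replicate 2 and 1190.4 pooled, which ranks it 15th. The second peak of the window, from 4824238 to 4824483, lay 4886 bp upstream of the CG14464 TSS but only 41 bp upstream of the TSS of the neighbouring gene CG17528, on the opposite strand. Its signals were 401.5 in replicate 1, 493.6 in replicate 2 and 895.9 pooled (rank 46). By position it is a promoter peak of CG17528. The weakest, from 4827273 to 4827552, stood 1833 bp upstream of CG14464 inside an annotated Cr1a transposable element, with 68.8 in replicate 1, 75.7 in replicate 2 and 156.1 pooled (rank 756).

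The d4 gene was the one whose strongest peak lay inside the gene. That peak, from 5260573 to 5260802 with its summit at 5260684, is 1680 bp downstream of the first TSS, in intron 2 of 5 of the long transcript. The signal was 409.2 in replicate 1, 438.3 in replicate 2 and 844.7 pooled, and 54 conservative peaks were stronger. A second peak, from 5293862 to 5294121, had its summit 79 bp upstream of the second TSS, where 3 of the 4 annotated transcripts start. It had 244.4 in replicate 1, 311.6 in replicate 2 and 573.7 pooled (rank 108). The start of the long transcript also had a peak, from 5258778 to 5259057 and with its summit 86 bp upstream, but with 75.7 in replicate 1, 73.2 in replicate 2 and 153.5 pooled (rank 773). The d4 promoter used by most annotated transcripts thus carried the higher signal of its 2 promoters in each replicate. Just outside the window, 2885 bp away, a peak of 976.5 stood 97 bp from a TSS of Nipped-A, which encodes the fly counterpart of TRRAP, a shared subunit of histone acetyltransferase complexes.

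**Figure D2:**
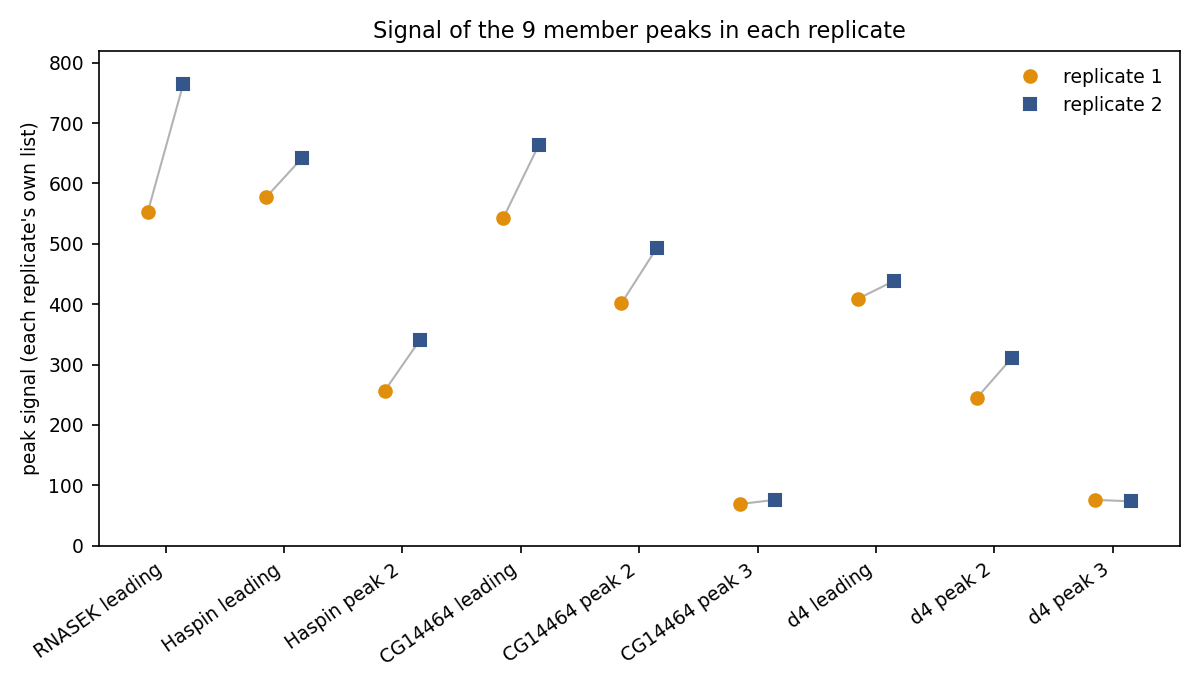
Peak signal of the 9 peaks in replicate 1 (circles) and replicate 2 (squares), each from that replicate's own list, with a grey line joining the values of 1 peak. In 8 of the 9 peaks replicate 2 is the higher, and the weakest peaks of CG14464 and d4 lie at 68.8 to 75.7 in both.

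**Figure D3:**
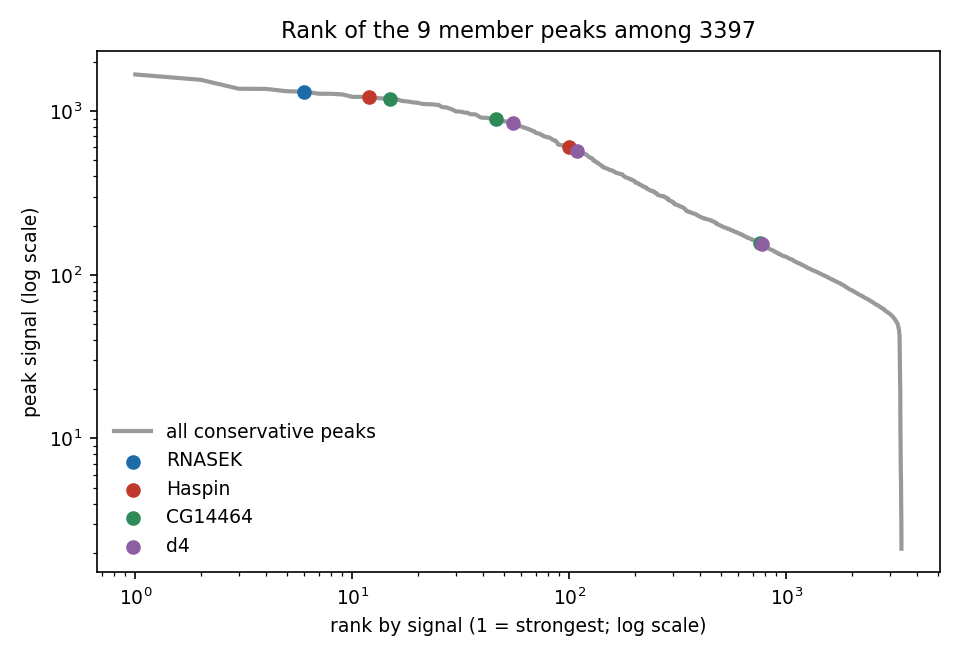
Pooled peak signal against rank for all 3397 conservative peaks (grey line), both on log scales, with the 9 peaks as coloured points. The 4 leading peaks sit between ranks 6 and 55, and the lowest points at ranks 756 and 773.

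The rule for choosing the genes names no threshold, so there are no peaks just inside or outside one. Ranked by the strongest conservative peak of the same window, RNASEK is 7th, Haspin 15th, CG14464 19th and d4 74th of the 13968 protein-coding genes. The label of strong-peak genes therefore fits RNASEK, Haspin and CG14464 more closely than d4.

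Peaks that missed the threshold in the same windows were much weaker. The ranked lists, which keep peaks at any IDR, add 5 rows at RNASEK, 26 at Haspin, 7 at CG14464 and 27 at d4 in the list behind the conservative set. Their highest signals were 40.3 at RNASEK, 35.9 at Haspin, 37.8 at CG14464 and 36.3 at d4. The lowest thresholded signal of the gene was 32.7 times this value at RNASEK, 16.8 times at Haspin, 4.13 times at CG14464 and 4.23 times at d4. Since the genes were picked for very high signal, these ratios are descriptions, and the same ratio over other genes is not given here. One of the rows, 2447 bp upstream of CG14464 with a signal of 37.8, had a global IDR of 0.02, and it was the only row of that list in the windows at 0.05 or less. In the other pooled list a row 1177 bp upstream of RNASEK (signal 40.3) had a global IDR of 0.035. Replicate 2 had a row 1197 bp upstream of RNASEK (signal 27.0) with a global IDR of 0.037. It also had a row 4371 bp upstream of CG14464 (signal 29.1) with a global IDR of 0.032.

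In the replicates' own lists the leading summits were 15 bp apart at RNASEK, 11 bp at Haspin, 2 bp at CG14464 and 13 bp at d4, and over all 9 peaks the distance was 2 to 15 bp. Over all conservative peaks the median was 18 bp, and over the 100 strongest it was 6 bp with an upper quartile of 13 bp, which RNASEK exceeded. All 4 leading peaks overlapped a thresholded peak of each replicate, against 48.6% of conservative peaks. This share carries no weight of its own, since the genes were picked on the pooled signal of the same reads. The pooled signal was close to the sum of the replicates' signals, at 0.988 to 1.081 times that sum for the 9 peaks and a median of 0.996 for all conservative peaks.

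Replicate 2 was 1.07 to 1.38 times replicate 1 in the 4 leading peaks. Over all conservative peaks the ratio had a median of 0.97 and quartiles of 0.78 and 1.18, and over the 100 strongest a median of 1.19 and quartiles of 1.05 and 1.29. The ratios of Haspin (1.11) and d4 (1.07) lay inside both pairs of quartiles, that of CG14464 (1.22) inside those of the 100 strongest, and that of RNASEK (1.38) above both. The lowest of the 9 ratios, 0.97, belonged to the weak d4 promoter peak.

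**Figure D4:**
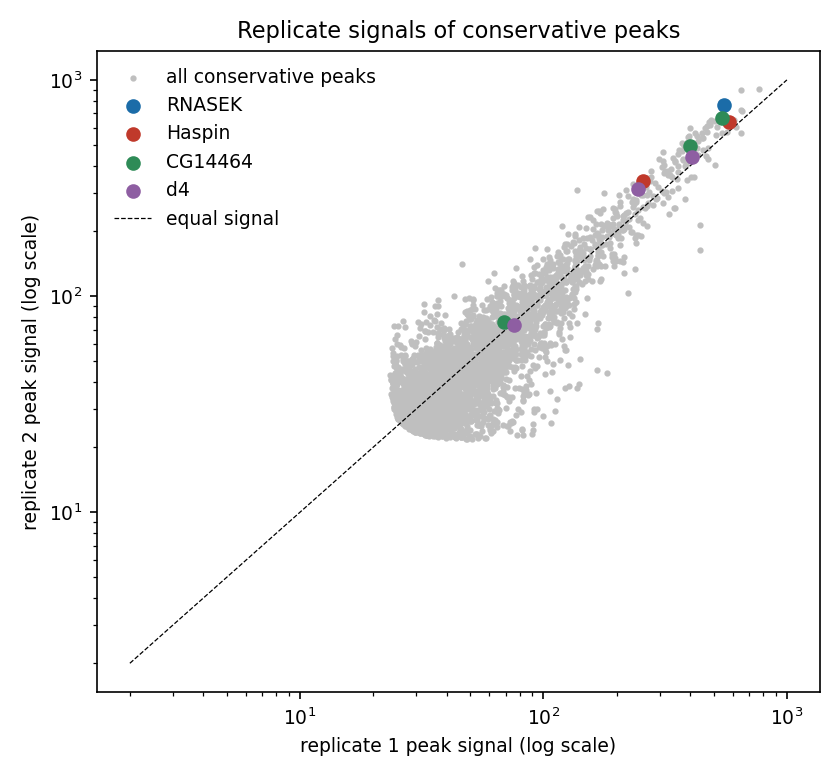
Replicate 2 against replicate 1 peak signal for conservative peaks with a ranked peak in each replicate (grey), both on log scales, with the 9 peaks coloured and equal signal as a dashed line. The strong peaks of the 4 genes lie above the line, as most strong peaks do, and the 2 weak ones lie near it within the main cloud.

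Each of the 4 genes had a peak summit 500 bp or less from a TSS (called a promoter summit here), against 14.1% of protein-coding genes. Promoter position was part of the choice for some of them, so the count is a description. In 5 of 5 annotated TSSs of the 4 genes the nearest summit was upstream, by 47 to 93 bp. The share of upstream summits over all genes is not given here. The peaks most like the leading ones, described below, were also upstream, by 20 to 74 bp. With the CG17528 promoter, 6 of the 9 peaks had a promoter summit, and all 6 contained the TSS within their bounds, in the pooled list and in each replicate. Of the 1659 conservative peaks with such a summit, 61.1% contained a TSS. The other 3 were the leading peaks of Haspin and d4, on opposite sides of their TSS, and the weak CG14464 peak in Cr1a.

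The 9 peaks differed in width. The 7 strong ones spanned 230 to 324 bp, and each had a width of its own. The 2 weak ones were exactly 280 bp wide, a width shared by 83.2% of conservative peaks but by 2.0% of the 100 strongest.

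The 4 genes shared a position on the arm. The stated rule names signal and not position, but whether position also guided the choice of these genes is not known. The 4 leading summits fell within 1247895 bp of each other, all in the first 6 Mb of an arm of 25286936 bp, the end next to the centromere. That segment held 105 conservative peaks with a median signal of 201, and the rest of the arm held 555 with a median of 86.7. Without the 9 peaks its median was 177. Peaks were not denser there, at 17.5 per Mb against 28.8 per Mb, but 25 of the 100 strongest peaks of the genome were in it, against 4 on the rest of the arm. Of those 25, 6 were among the 9 peaks here, which were picked for high signal, and 19 were not. Promoter summits were found at 52.6% of its 78 genes, or 37 of 74 without the 4, and at 13.1% of the 2774 genes on the rest of the arm. The 37 still include CG17528, whose promoter summit is among the 9 peaks here. These are shares of genes that lie close together, and no test was made of them.

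The RefSeq annotation marks all 4 genes as annotated by the Drosophila Heterochromatin Genome Project, which covered the repeat-rich sequence around centromeres. The remark was looked up after the peaks had been examined. Of 206 protein-coding genes so marked, 39.8% had a promoter summit, or 38.6% without the 4, against 13.8% of the 13762 without the mark. Among the 202 marked genes other than the 4, 110 had a conservative peak in their window, with a median strongest signal of 535, against 101 for the 3966 unmarked genes that had one. At least the pooled signal of the leading d4 peak was reached at 34 of these 202 genes and at 36 of the 13762. On the first 6 Mb of 2R, a promoter summit was found at 69.8% of the 43 marked genes, or 66.7% of 39 without the 4, and at 31.4% of the 35 unmarked ones. The marked genes without the 4 still include CG17528. It counts in each of these shares through peaks of the CG14464 window, since its own window holds the leading CG14464 peak and its promoter peak.

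The share of annotated transposable elements around the genes varied widely, and none lay under their 7 strong peaks. Annotated transposable elements, mobile repeats that accumulate near centromeres, covered 0% of the RNASEK window, 11.7% at Haspin (1 element, inside the gene), 41.2% at CG14464 and 51.4% at d4. The median over all protein-coding windows was 0%, with 98.9% of them below CG14464 and 99.4% below d4. In the first 6 Mb of 2R the median was 13.2%, which is above RNASEK and Haspin and below CG14464 and d4. The 7 strong peaks had no base in such an element. Both weak peaks had their summits in one, the CG14464 peak wholly in Cr1a and the d4 start peak in a Quasimodo fragment, with 56.8% of its length in elements. Over all conservative summits 1.18% lay in an annotated element, and of the 100 strongest none did. Bases that the reference sequence marks as repeats were counted separately. Within 100 bp of the leading summits their share was 12.9% at RNASEK, 36.8% at Haspin, 19.9% at CG14464 and 23.9% at d4. The median over all conservative summits was 18.9%. How reads from repeated sequence were placed is not given in the sources used here, and its part in the signals, weak or strong, was not tested.

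Base composition did not set the leading peaks apart in one direction. Within 100 bp of the summit the GC content was 42.8% at RNASEK, 45.8% at Haspin, 35.3% at CG14464 and 33.3% at d4, and the median of all conservative summits was 36.3%. The lowest of the 9 values was 28.9%, at the second d4 promoter.

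Short sequence motifs were sought on both strands within 100 bp of each pooled summit. CACTG, counted on either strand, was found at the leading peaks of all 4 genes, in a window where 51.8% of all conservative summits have it. The matches nearest the summit were centred 62 bp away at RNASEK, 42 bp at Haspin, 13 bp at CG14464 and 9 bp at d4. Within 50 bp 3 of the 4 kept one. The share of all conservative summits was not given for that narrower window, so the 51.8% does not apply to this count. CG14464 had 3 copies, Haspin and d4 had 2 and RNASEK had 1. Of the other 5 peaks, the second d4 promoter alone had a match.

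TATAAA, the core of the TATA box, was found at 4 of the 9 peaks against 33.0% of conservative summits. It was centred 4 bp from the summit at the CG14464 promoter and also 4 bp from it at the CG17528 promoter, and it lay 22 bp from the leading d4 summit. Only the CG14464 match lay on the strand of its gene. Its centre was on the upstream side of the CG14464 summit, which is itself 47 bp before the TSS. The matches at CG17528, the leading d4 peak and the weak d4 promoter peak lay on the opposite strand. TATCGATA, a site of the factor Dref, was at the upstream Haspin peak alone (4.27% of all summits), and GAGAG, a site of the GAGA factor, at the weak CG14464 peak alone (23.7%). There was no match at any of the 9 to CAGCTG, which 9.10% of all summits have, to GGTCACAC (2.86%) or to CATCNCTA (4.36%). Nor was there one to CAGGTAG (0.736%), or to AGGTGGC or its variant AGATGGC, forms of an insulator motif (5.92% for either). Of the promoters of protein-coding genes, taken from 250 bp before to 50 bp after each TSS, 46.4% hold CACTG and 42.3% hold TATAAA. These stretches are longer than the windows around summits, so the promoter and summit shares are not directly comparable. A match or its absence is a description of these letters and not of binding.

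Another 2 motifs were picked after the peaks had been seen. GCTAGTG occurred in 2 of the 9 windows, centred 5 bp from the RNASEK summit and 0 bp from the upstream Haspin summit, and in 2.18% of all conservative windows. Its last 5 letters alone, TAGTG, occurred in 3 of the 9 windows, at RNASEK, the upstream Haspin peak and the CG14464 promoter, and in 29.0% of all. Since both were chosen from these peaks, neither comparison has weight as evidence.

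**Figure D5:**
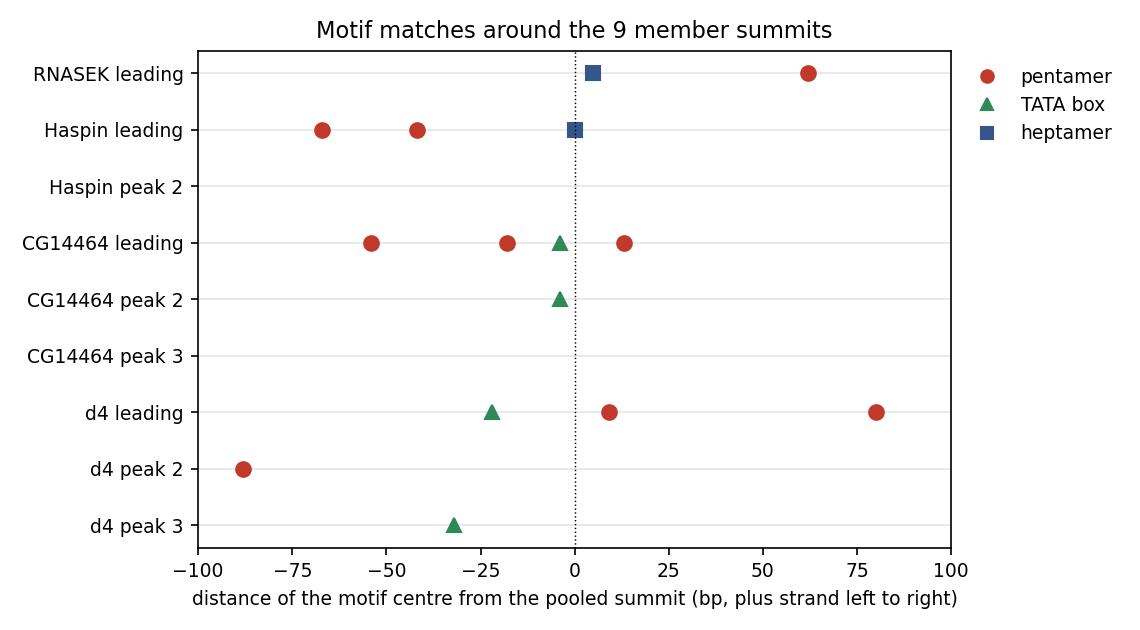
Motif matches within 100 bp of the 9 pooled summits, as distance in bp from the summit to the motif centre along the plus strand, with 1 row per peak. Circles mark the pentamer CACTG on either strand, triangles the TATA box core and squares the heptamer picked after the peaks were seen; all 4 leading peaks have a circle, and the squares of RNASEK and Haspin stand 5 and 0 bp from the summit.

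The peaks most like the 4 leading ones in the 2 replicates' signals lay at the promoters of other genes. Likeness was the distance between log10 signals over the 2 samples. Nearest to RNASEK were CG40228 (3L; 545.3 in replicate 1 and 737.9 in replicate 2) and ND-AGGG (3L; 537.8 in replicate 1 and 789.4 in replicate 2), a gene of mitochondrial complex I. Haspin was nearest to PlexB (4; 582.6 and 643.9), a plexin receptor gene, and anne (4; 604.1 and 654.0). For CG14464 they were UQCR-11 (3L; 539.8 and 658.3), a gene of mitochondrial complex III, and Fis1 (2R; 532.3 and 652.2), a gene of mitochondrial fission. For d4 they were apolpp (4; 414.9 and 449.7), which encodes a lipid carrier of the blood, and Stlk (2R; 404.1 and 461.2), a gene of a Ste20-like kinase. All 8 summits stood 20 to 74 bp upstream of the TSS named, unlike the leading peaks of Haspin and d4.

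Peaks at genes listed as related to RNASEK, Haspin and d4 are given as a description, since the leading peaks were picked for their height. Of 34 V-ATPase genes, the pump with which RNASEK associates in human cells, 8 had a promoter summit (23.5%, against 14.1% of all genes). Their pooled signals ran from 56.3 to 201.3 with a median of 113.5. The highest were at Vha16-5 (82.1 in replicate 1 and 117.2 in replicate 2) and Vha100-2 (83.4 and 113.1), and the others at Vha68-1, Vha26, Vha16-1, Vha36-1, Vha44 and VhaM9.7-b. With a limit of 200 bp from a TSS, 4 of the 34 had one, against 10.5% of all genes. A peak anywhere in the window was found at 29.4% of the 34, against 29.2% of all genes.

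Among 16 genes of mitotic kinases and centromeres, chosen for Haspin, 3 had a promoter summit (18.8%). They were Cdk1, the main mitotic kinase gene, with a pooled signal of 109.9 there and a stronger peak of 420.4 elsewhere in its window; BubR1, a spindle checkpoint gene, with 104.1; and mei-S332, which protects centromere cohesion, with 97.5. Replicate 1 alone had 1 of the 16 and replicate 2 alone had 3. None of aurB, Incenp and borr, genes of the chromosomal passenger complex, had one. A peak anywhere in the window was found at 18.8% of the 16, against 29.2% of all genes.

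Of 12 genes of Brahma-type remodelling complexes and the d4 family, 1 had a promoter summit (8.33%), brm, the ATPase gene, with 239.7 in replicate 1, 176.1 in replicate 2 and 416.1 pooled. Another 4 had a peak elsewhere in the window, namely osa, Act5C, Bap170 and Snr1, with strongest signals of 445.0, 223.2, 102.3 and 90.3. A peak in the window was thus found at 41.7% of the 12, against 29.2% of all genes. The d4 relative tth had none. At brm replicate 1 was the higher, while at the leading d4 peak replicate 2 was.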

How the data were processed

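Peak lists from 2 replicates of CG1024-eGFP embryos were analysed, with chromatin sonicated to 200 to 800 bp per the labels. Per the deposited inventories, lists derive from each replicate's alignments and a control, or from both replicates, on build dm6; the sources used here do not name the aligner or peak caller. The deposited peak signal is the authors' own value, with no stated scale, and a −log10 global IDR column stands in the authors' ranked lists. Per-replicate signals are those of the strongest ranked peak that overlaps a pooled peak by at least 1 bp.

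Starts were converted to 1-based positions. Genes came from Ensembl release 115. All peak ends lay within the RefSeq FASTA, and RefSeq gave the 4 genes the same bounds. The 4 genes, pathway lists and motifs were chosen with earlier results of these data known, so every result is a description without a test. Named genes are the 4, genes with a TSS within 500 bp of a peak in their windows, the 2 most alike peaks per gene, and list genes with a promoter summit; uex, IntS3, Nipped-A and list genes without a promoter summit were named after their values were seen. Counting functions were tested on simulated data. Work used Python 3.11.15, numpy 2.4.6, pandas 2.3.3 and matplotlib 3.10.9. Alternatives were the other pooled list, each replicate alone, other IDR levels, TSS windows, upstream limits, overlaps and motif windows.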

Additional observations from a re-analysis of the deposited data

How the results depend on the processing

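Of 43 alternative values for 8 results, 36 stayed within 1.5 times the reported count or, for a distance, within its spread. The 9 peaks of the windows were 9 in the other pooled list, in each replicate alone and at a global IDR of 0.001, 10 at 0.05, 8 with 2 kb upstream and 11 with 10 kb upstream. The 4 genes with a promoter summit and the 4 leading peaks found in both replicates were 4 under each alternative run. The genes were picked for very high signal in the same reads, so these counts had little room to move and carry no weight of their own. The 7 values outside the limits concern pathway lists. V-ATPase genes with a promoter summit fell to 5 at a global IDR of 0.001 and to 4 with a TSS window of 200 bp, against 8 as reported, and each replicate alone gave 6. Mitotic and centromere genes numbered 1 with the 200 bp window and 1 to 3 with 1 replicate left out, against 3. Remodelling genes numbered 3 at a global IDR of 0.05, 2 at 0.001 and 2 with a 1000 bp window, against 1. The share of all protein-coding genes with a promoter summit, 14.1% as reported, moved too: 8.85% at a global IDR of 0.001, 18.7% at 0.05, 10.5% with the 200 bp window, 16.8% with the 1000 bp window, 10.5% without replicate 1 and 11.4% without replicate 2. The ranked lists behind the IDR settings also hold rows that the thresholded lists leave out. No paired analysis was possible because there is 1 group. Depth is unknown, so no limit of detection can be given for windows without a peak.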
